A study of Mus musculus with 12 samples.

Results

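Monocytes and resident macrophages share the bone marrow but do different work, and 10 genes that mark them were followed here through the chromatin around them. Csf1r (the receptor for macrophage colony-stimulating factor), Ly6c2 (a surface protein of classical monocytes) and Adgre1 (which encodes F4/80, a surface protein of monocytes and macrophages) stood for monocytes. Spic (the transcription factor of iron-recycling macrophages), Hmox1 (heme oxygenase), Slc40a1 (the iron exporter ferroportin) and Cd163 (the receptor for haptoglobin-bound hemoglobin) stood for iron recycling. Vcam1 (an adhesion molecule that holds erythroblasts), Siglec1 (the sialic acid receptor CD169) and Mertk (a receptor for engulfing dying cells) stood for macrophages of erythroblast islands and of the tissue. A peak was a member when its centre lay in a member gene or within 15 kb of the gene's ends, which gave 38 of the 75281 deposited peaks. All 38 passed the filter on low counts. Spic had no peak, so 9 of the 10 genes carried values: 14 peaks lay at the monocyte genes, 9 at the iron-recycling genes and 15 at the island and tissue macrophage genes.

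Monocytes arise from progenitors in the marrow and leave for the blood. Macrophages of the erythroblast island stay, ring themselves with developing red cells and swallow the expelled nuclei. Macrophages that take up old red cells break heme down with heme oxygenase and release the iron through ferroportin, and heme itself is a known inducer of Spic and Hmox1.

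The study used ATAC-seq, in which the Tn5 transposase cuts DNA that nucleosomes leave exposed, so that reads over a peak measure how open its chromatin is. Bone marrow came from the NZO/HILtJ strain, whose mice grow obese, and the groups were 18-month females, 18-month males, 3-month females and 3-month males, with 3 libraries each and no treatment or engineered allele named. Each library title carries a number of its own (BM-35 and so on), but no label says what was numbered, so p-values measure the spread between these libraries. The labels name bone marrow and no sorted cell, although the protocol text describes a sort for CD3e and CD8, as for T cells. Of 10 T-cell genes, 6 had a peak at a gene start or end (Cd3d and Cd3g, which share 1 peak, Lck, Trac, Tcf7 and Il7r) and 4 had none (Cd3e, Cd8a, Cd8b1 and Cd4).

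Total counts in peaks ran from 7668099 to 12756647 per library, where 3 counts correspond to 0.235 to 0.391 CPM (the count scaled to the library total). The libraries were sequenced in 6 runs, and 0 runs held both ages, so age and run cannot be told apart. At 18 months all females were in run 14 and all males in run 15, so sex and run cannot be told apart there. The 3-month male BM-253 stood apart, with a summed accessibility at neutrophil gene starts of 341 CPM against 170 to 221 in the other 3-month libraries. In bulk marrow, a smaller share of cells with an open peak and less opening per cell cannot be told apart. All levels below are CPM scaled by TMM factors (trimmed mean of M-values), and all changes are log2 fold changes of 18 over 3 months from the quasi-likelihood test of edgeR in a model of age plus sex, called at an adjusted p under 0.05 over 75164 tested peaks.

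RefSeq start positions on GRCm38.p6 were at hand for 4 of the 10 members (Ly6c2, Spic, Cd163 and Mertk). The sequences just upstream of 3 of them are shown because they differ in what the peaks did there: the Ly6c2 window lay inside a peak, the Mertk window lay 205 bp from the nearest peak, and the Spic window lay 47194 bp from any. Ly6c2 is given at chr15:75112067-75112221 on the minus strand, without the 95 bases that lie within the gene's own span. Mertk is given at chr2:128698665-128698914 on the plus strand and Spic at chr10:88683024-88683273 on the minus strand.
Ly6c2: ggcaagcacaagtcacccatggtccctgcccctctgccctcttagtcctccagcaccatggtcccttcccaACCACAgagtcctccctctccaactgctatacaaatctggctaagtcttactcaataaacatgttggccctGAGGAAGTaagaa
Mertk: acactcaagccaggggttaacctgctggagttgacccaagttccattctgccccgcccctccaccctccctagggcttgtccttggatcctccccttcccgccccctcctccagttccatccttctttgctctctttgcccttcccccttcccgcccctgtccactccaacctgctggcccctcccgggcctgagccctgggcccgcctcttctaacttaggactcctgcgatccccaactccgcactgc
Spic: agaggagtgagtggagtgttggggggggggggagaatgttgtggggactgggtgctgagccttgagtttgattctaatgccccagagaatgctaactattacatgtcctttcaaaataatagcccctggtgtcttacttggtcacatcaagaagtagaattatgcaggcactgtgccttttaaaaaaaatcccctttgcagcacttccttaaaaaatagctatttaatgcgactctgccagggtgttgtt
Capitals mark matches to any of 8 motifs, each searched on both strands of the 250 bases before the start, and each share below is the part of 32851 promoter windows of that length with a match. GAGGAAGT, the core bound by the myeloid factor PU.1, was in 2.44%. The RUNX letters TGTGGT were in 14.05%. TTGCNNAA, a palindrome of C/EBP factors, was in 9.56%, and TGACNNNGC, the core of the antioxidant response element, in 10.2%. The AP-1 letters TGANTCA had a share of 6.75%. An E-box, read as CACGTG, had a share of 6.02%. The GATA letters, AGATAA, had a share of 9.99%. The STAT site called GAS, read as TTCNNNGAA, had a share of 7.02%. Ly6c2 held the RUNX letters on the opposite strand, from 179 to 174 bases before its upper start, and the PU.1 core on the same strand, beginning 108 bases before it. A second RefSeq start of Ly6c2, 34 bases downstream, had a further PU.1 core in the 8 bases directly before it. The Mertk, Spic and Cd163 windows held 0 matches to the 8 motifs.

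Accessibility around the monocyte genes rose with age at 4 of 14 peaks and fell at 0 by edgeR (0 also by DESeq2, and 1 at an unadjusted p under 0.05), while the macrophage genes moved both ways: 2 rose and 2 fell of 9 at the iron-recycling genes, and 1 rose and 3 fell of 15 at the island and tissue macrophage genes. Over all 38 peaks 7 rose, 5 fell and 26 passed in neither direction. Of all tested peaks 9.43% rose and 11.6% fell, against 18.4% and 13.2% of the member peaks. The median log2 fold change was 0.35 at the monocyte genes, -0.19 at the iron-recycling genes and -0.05 at the island and tissue macrophage genes, beside 0.02 over all tested peaks. At the monocyte genes 12 of 14 peaks had a positive fold change, at the iron-recycling genes 3 of 9 and at the island and tissue macrophage genes 6 of 15. The ages did not overlap at 5 of the 38 peaks, a property of 7.23% of all tested peaks.

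The monocyte count depended on the scaling and on single libraries: 7 peaks rose with total counts in place of TMM factors and 1 with offsets smoothed on peak width. It was 1 without BM-36, BM-40 or BM-244, 2 without BM-245 or BM-252 and 6 without BM-253. The iron-recycling count was 2 without BM-35, BM-39, BM-40 or BM-244 and 1 without BM-245. The median at the monocyte genes stayed between 0.26 and 0.42 under the scalings, the filters, DESeq2 and the omission of any 1 library. The iron-recycling median was -0.03 with width offsets. The island and tissue macrophage median was 0.02 with total counts and 0.29 with a window of 3 kb. With Adgre1 counted among the island and tissue macrophage genes, 3 of those peaks rose and 3 fell, and 2 rose at the monocyte genes left. The count over all 38 peaks was 6 with width offsets, with 1 higher and 5 lower. It was 7 without the 18-month female BM-36, and 6 without the 18-month male BM-40, the 3-month female BM-244 or the 3-month female BM-245. Without the 3-month male BM-253 it was 15, with 10 higher and 5 lower.

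**Figure D1:**
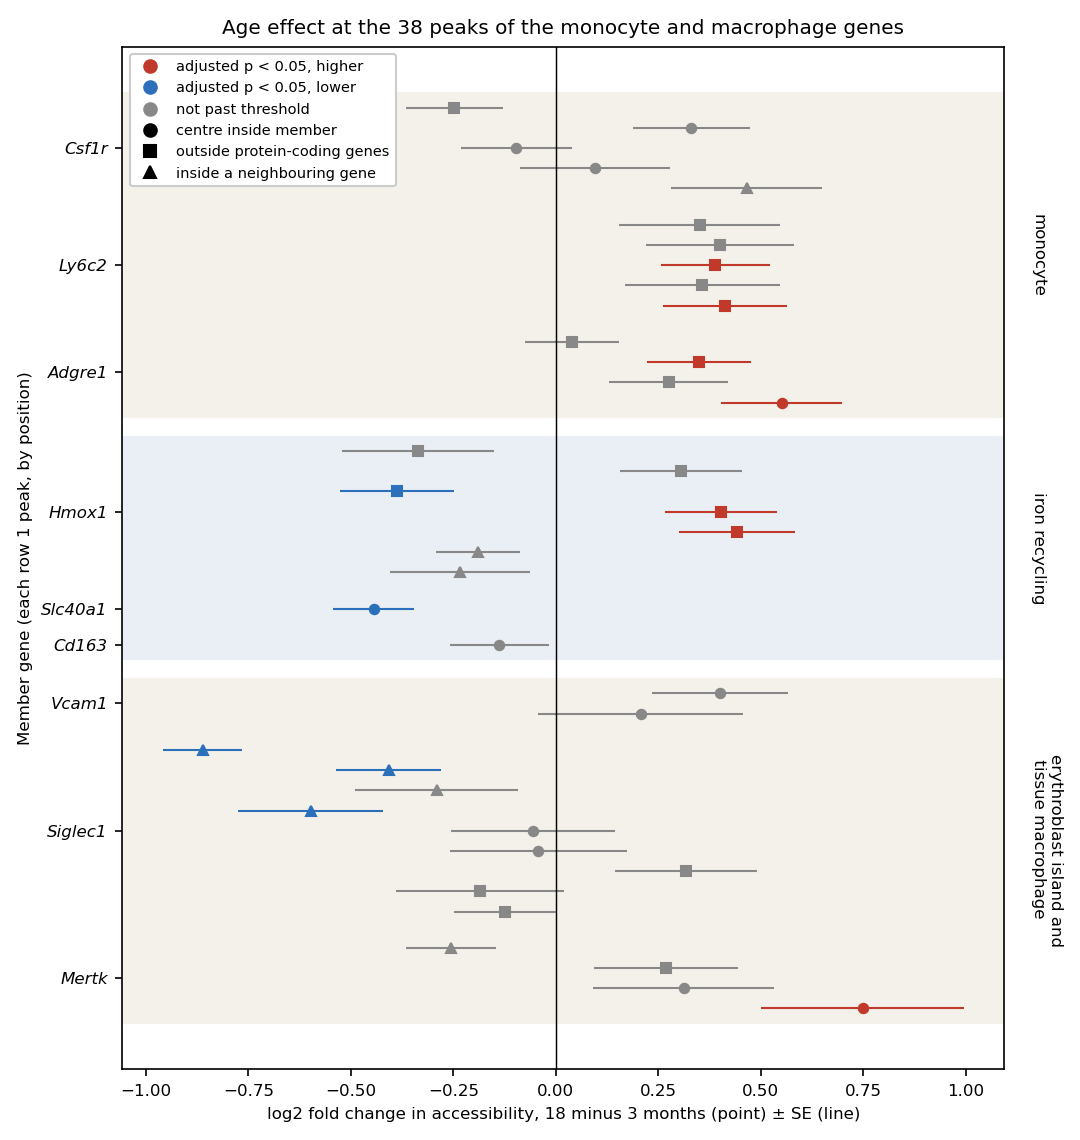
Age effect at each of the 38 member peaks. The x axis is the log2 fold change in accessibility, 18 minus 3 months, with a point per peak and a line of ± 1 SE; rows run by gene and position, colours show peaks past an adjusted p of 0.05 and shapes show whether the centre lay in the member, outside protein-coding genes or in a neighbouring gene. The 5 Ly6c2 and 4 Adgre1 points all lie right of 0, and the 3 lower calls near Siglec1 are triangles.

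Adgre1 held the monocyte-gene peak with the smallest adjusted p, at 1 end of the gene. The gene spans chr17:57358581-57483529, and the peak over its lower end, chr17:57358534-57359150, ran from 7.17 to 9.89 normalised CPM at 18 months (median 8.05) and from 4.36 to 6.89 at 3 months (median 5.62). No 18-month library was as low as any 3-month library. The means were 8.29 ± 1.14 and 5.65 ± 0.909 CPM (SD, n = 6 per age), a log2 fold change of 0.55 (SE 0.147, adjusted p = 0.00522). The fold change stayed between 0.49 and 0.63 and past the threshold under each of the 18 alternatives run on it.

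A second Adgre1 peak, 11.1 kb outside the gene at chr17:57347020-57347900, also rose. It read 16.3 to 25.1 CPM at 18 months (median 18.5) and 13.1 to 21.8 at 3 months (median 14.4), with overlap from the 3-month males BM-251 and BM-253. The log2 fold change was 0.35 (SE 0.126, adjusted p = 0.0409). This call was lost when any of 7 of the 12 libraries was left out (adjusted p = 0.0519 to 0.154): the females BM-35 and BM-36 and the male BM-40 at 18 months, and the females BM-243, BM-244 and BM-245 and the male BM-252 at 3 months. It was also lost with width offsets (adjusted p = 0.0703) and with DESeq2 (adjusted p = 0.0759). The other 2 Adgre1 peaks, 9328 and 13983 bp outside the gene, had log2 fold changes of 0.27 and 0.04 and did not pass.

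Ly6c2 had similar pooled estimates along its window, though evenness was not tested. Its 5 peaks had log2 fold changes between 0.35 and 0.41 (SE 0.133 to 0.197), and only 2 of them passed. Within sexes the estimates ran from 0.16 to 0.47 in females and from 0.30 to 0.67 in males. All 5 centres lay outside the gene body at chr15:75108161-75112066, and 1 peak reached into it. The peak at chr15:75117317-75117997, 5.6 kb beyond the gene, read 8.88 to 12.9 CPM at 18 months (median 10.8) and 6.85 to 9.49 at 3 months (median 8.37), and the ranges overlapped at their edges. Its log2 fold change was 0.39 (SE 0.133, adjusted p = 0.0301).
The call there was lost on leaving out any of 6 libraries (adjusted p = 0.0554 to 0.0821): BM-35, BM-36, BM-38 and BM-40 at 18 months and BM-244 and BM-245 at 3 months. Width offsets gave an adjusted p of 0.0717. The second called Ly6c2 peak, chr15:75120003-75120517, rose by 0.41 on the log2 scale (SE 0.151, adjusted p = 0.043), from 6.02 ± 0.727 to 8.08 ± 1.29 CPM (SD, n = 6). It was lost without any of 9 libraries (adjusted p = 0.0551 to 0.118), that is, all except the 18-month female BM-35, the 18-month male BM-38 and the 3-month female BM-245. It was also lost with abundance offsets (adjusted p = 0.0712) and width offsets (adjusted p = 0.118).

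The peak over the printed Ly6c2 sequence, chr15:75111819-75112416, read 3.11 to 5.98 CPM at 18 months (median 4.32) and 2.4 to 4.63 at 3 months (median 3.46), and the ages overlapped. Its log2 fold change of 0.35 (SE 0.197, adjusted p = 0.207) did not pass. Ly6c2 belongs to a cluster of near-identical genes, and how reads matching several copies were assigned is not given in the sources used here. Values over the gene start, and the gene sum that includes them, are therefore uncertain.

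Csf1r had 0 of 5 peaks past the threshold by edgeR or DESeq2, and 3 at an unadjusted p under 0.05. The peak over its lower end at chr18:61105526-61106315 read 8.85 to 14.1 CPM at 18 months (median 9.52) and 6.77 to 10.9 at 3 months (median 8.19). The ages overlapped, with the highest values in the 18-month females BM-35 and BM-36, and the log2 fold change was 0.33 (SE 0.143, adjusted p = 0.0927). It passed with total counts (adjusted p = 0.0297) and without the 3-month male BM-253 (adjusted p = 0.0142). The smallest p among the Csf1r peaks was at chr18:61131377-61131790, inside the neighbouring gene Hmgxb3, with 5.35 ± 1.37 CPM at 18 months and 3.84 ± 0.907 at 3 months (SD, n = 6; log2 fold change 0.47, SE 0.185, adjusted p = 0.0641). It passed with total counts (adjusted p = 0.0313), without the 18-month female BM-35 (adjusted p = 0.0342) and without the 3-month male BM-253 (adjusted p = 0.0334). The peak 14.3 kb outside the gene had a log2 fold change of -0.25 (adjusted p = 0.133), and the other 2 peaks inside the gene stood at -0.10 and 0.10.

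**Figure D2:**
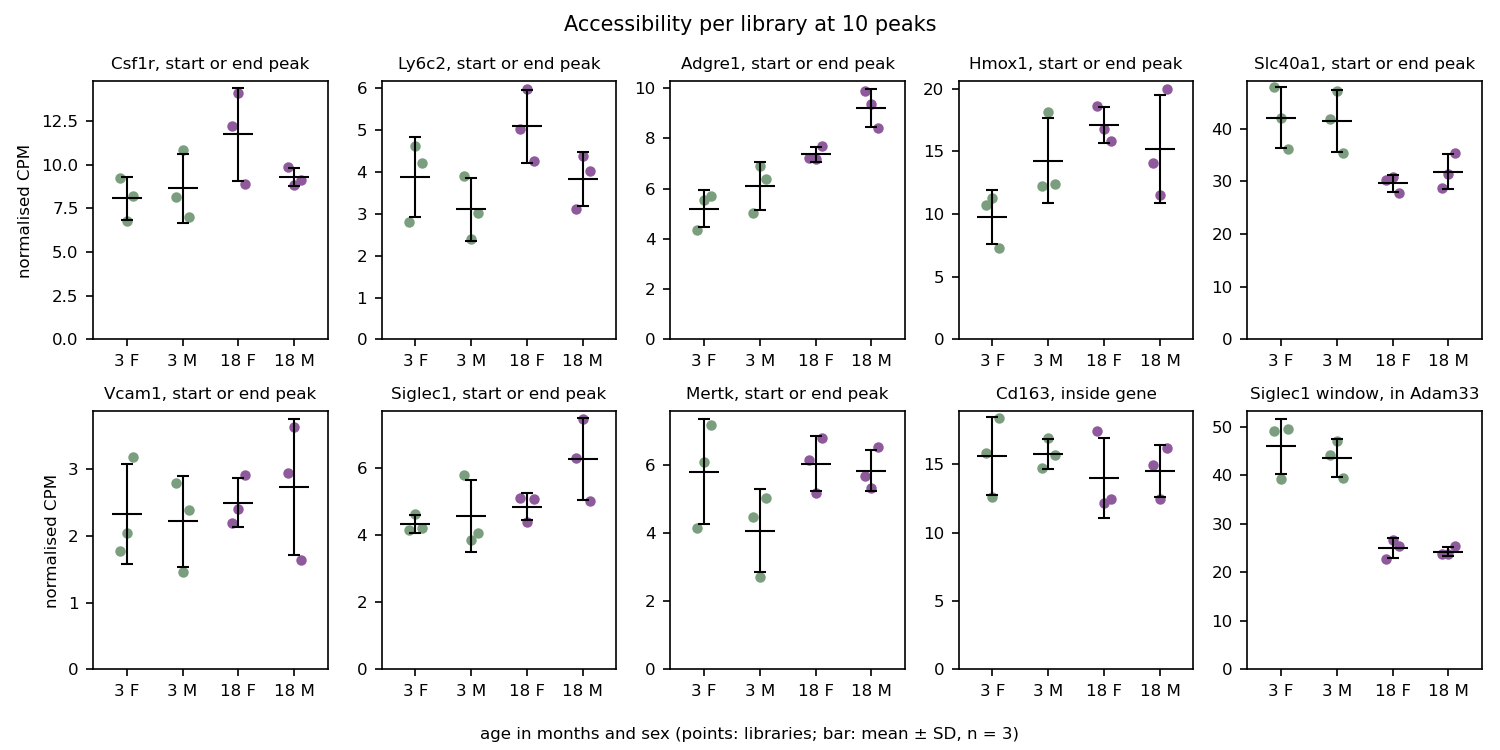
Accessibility in every library at 10 peaks. The y axes are TMM-normalised CPM from 0, the x axes are age in months and sex, points are libraries and bars are means ± SD (n = 3 per group). At the Adgre1 peak the 18-month libraries sit between 7.17 and 9.89 CPM, all above the 3-month ones, and at the Adam33 peak near Siglec1 between 22.7 and 26.7 CPM, all below them.

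Among the iron-recycling genes, Slc40a1 fell and Hmox1 moved in both directions. The single Slc40a1 peak, chr1:45924388-45926870 over the upper end of the gene, read 27.7 to 35.4 CPM at 18 months (median 30.5) and 35.4 to 47.9 at 3 months (median 42). The ages did not overlap, but only just: the 18-month male BM-40 lay marginally below the 3-month male BM-252. Mean accessibility was 30.7 ± 2.65 CPM at 18 months and 41.8 ± 5.24 at 3 months (SD, n = 6), a log2 fold change of -0.44 (SE 0.0994, adjusted p = 0.00086). It stayed between -0.50 and -0.26 and past the threshold under all 18 alternatives.

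At Hmox1, which spans chr8:75093618-75100593, 2 of 7 peaks rose and 1 fell. The peak over the lower end of the gene, chr8:75093201-75093991, read 11.5 to 19.9 CPM at 18 months (median 16.3) and 7.29 to 18.2 at 3 months (median 11.8). The overlap came from the 3-month male BM-253 and the 18-month male BM-39, and the log2 fold change was 0.44 (SE 0.142, adjusted p = 0.0205). The call was lost without the 18-month female BM-35, the 18-month male BM-40, the 3-month female BM-244 or the 3-month female BM-245 (adjusted p = 0.055 to 0.1002), and with width offsets (adjusted p = 0.0516).

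Upstream in coordinate, the directions alternated over a few kb. The peak 7.5 kb outside the gene, chr8:75085703-75086495, rose from 8.1 ± 1.18 to 10.7 ± 1.48 CPM (SD, n = 6; log2 fold change 0.40, SE 0.137, adjusted p = 0.0284). The peak 9.6 kb outside, chr8:75083807-75084283, fell from 14.2 ± 3.55 to 10.8 ± 1.94 CPM (log2 fold change -0.39, SE 0.139, adjusted p = 0.0396). Neither call was firm. The rise was lost without any of 6 libraries (BM-36, BM-39 and BM-40 at 18 months and BM-243, BM-245 and BM-252 at 3 months; adjusted p = 0.0565 to 0.078) and with width offsets (adjusted p = 0.0533). The fall was lost without any of 8 (BM-35, BM-38, BM-39 and BM-42 at 18 months and BM-244, BM-245, BM-251 and BM-253 at 3 months; adjusted p = 0.0571 to 0.1196), with total counts (adjusted p = 0.0902) and with DESeq2 (adjusted p = 0.0595). The remaining 4 Hmox1 peaks had log2 fold changes of -0.34 to 0.30, and 2 of those lay in Mcm5, a gene for a subunit of the replicative helicase.

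Cd163 and Spic gave little to read. The only Cd163 peak lay inside the gene at chr6:124321083-124322743 and read 12.2 to 17.4 CPM at 18 months (median 13.7) and 12.6 to 18.4 at 3 months (median 15.8). The ages overlapped almost fully, and the log2 fold change was -0.14 (SE 0.121, adjusted p = 0.45). The nearest peak centre to Spic lay 48214 bp from the gene. A gene without a peak within 15 kb was not rare: 4948 of 21887 protein-coding genes (22.6%) had none, and the genes with peaks had a median of 4.

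Of the island and tissue macrophage genes, Siglec1 had lower calls at peaks centred in a neighbouring gene and at no others. Its gene body at chr2:131067801-131086778 and the 15 kb around it held 9 peaks, and the 3 that fell were all among the 4 inside Adam33, which encodes a metalloprotease. The widest of these, chr2:131052152-131055266, covered 3115 bp with its centre 14.1 kb from Siglec1. It read 22.7 to 26.7 CPM at 18 months (median 24.6) and 39.3 to 49.4 at 3 months (median 45.6), and the ages were far apart. Its log2 fold change was -0.86 (SE 0.0975, adjusted p = 2.59e-09) and stayed between -0.91 and -0.66 under the 18 alternatives.

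The peak at chr2:131062391-131063227 fell by 0.60 on the log2 scale (SE 0.177, adjusted p = 0.0117), from 7.35 ± 2.06 to 4.86 ± 1.07 CPM (SD, n = 6). It kept its call under every alternative run on it. The peak at chr2:131055613-131056575 fell by 0.41 (SE 0.128, adjusted p = 0.018), from 14.3 ± 1.99 to 10.8 ± 1.78 CPM, and was lost without the 18-month female BM-36 or the 3-month male BM-251 (adjusted p = 0.0624 and 0.0636) and with total counts (adjusted p = 0.0543). The 5 Siglec1 peaks outside Adam33 had log2 fold changes between -0.19 and 0.32, and 0 passed by edgeR or DESeq2 (0 at an unadjusted p under 0.05). The peak at the upper end of Siglec1, chr2:131086774-131087191, read 4.38 to 7.47 CPM at 18 months (median 5.09) and 3.86 to 5.8 at 3 months (median 4.19), with a log2 fold change of 0.32 (SE 0.173, adjusted p = 0.194). Those ranges overlapped, with the highest value in an 18-month male.

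Leaving out the 8 member peaks inside a neighbouring gene changed the contrast between the roles. Of the remaining 30 peaks 7 rose and 2 fell. The monocyte genes had 4 higher and 0 lower of 13 (median 0.35), the iron-recycling genes 2 and 2 of 7 (median -0.14) and the island and tissue macrophage genes 1 and 0 of 10 (median 0.24). The 8 peaks in Adam33, Mcm5, Anapc1 and Hmgxb3 had 0 higher and 3 lower (median -0.27).

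**Figure D3:**
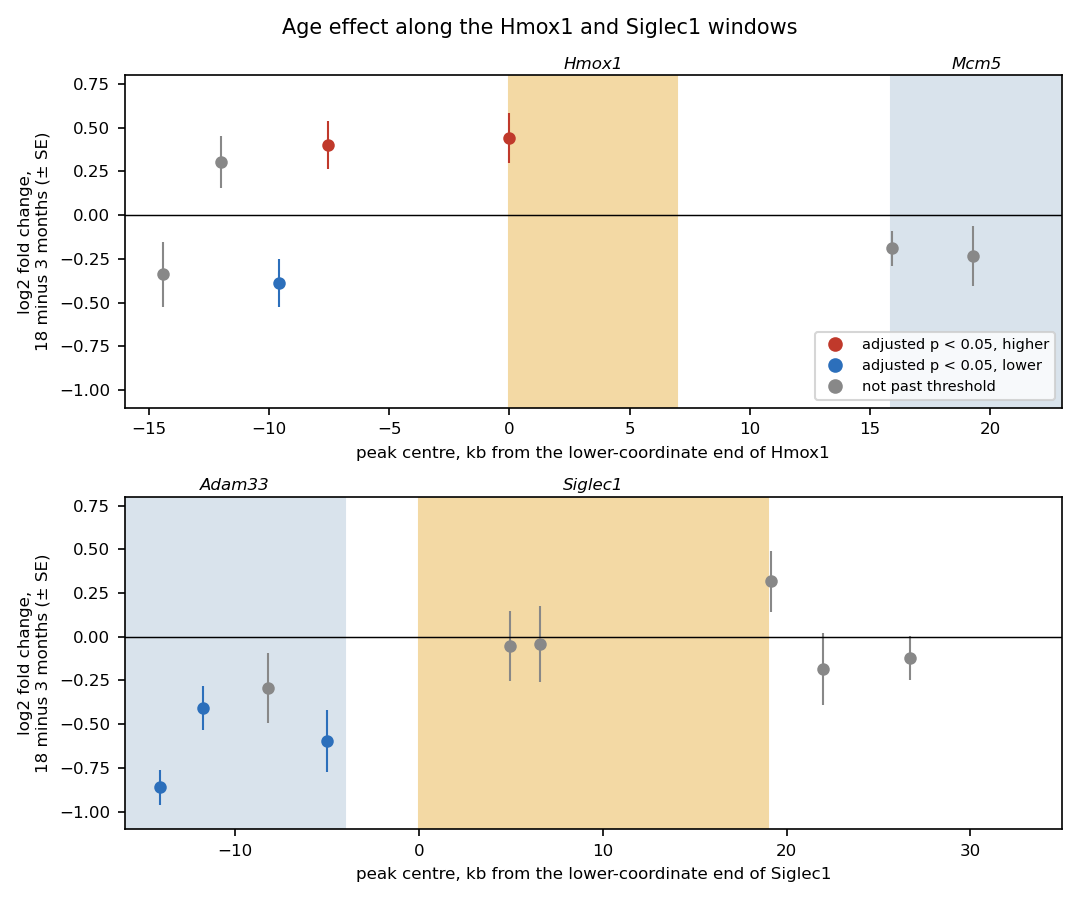
Age effect along the windows of Hmox1 (top) and Siglec1 (bottom). The x axis is the distance of each peak centre from the lower-coordinate end of the gene in kb, the y axis is the log2 fold change, 18 minus 3 months, ± SE, and shading marks the member (tan) and its neighbour (grey-blue). The 3 lower calls of the Siglec1 window fall in Adam33, and the Hmox1 window holds 2 higher calls and 1 lower call outside both genes.

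Vcam1 and Mertk had small peaks. The Vcam1 peak inside the gene at chr3:116123880-116124375 read 5.18 to 6.72 CPM at 18 months (median 5.51) and 3.98 to 4.77 at 3 months (median 4.26). The ages did not overlap, yet with 37 to 79 counts per library the log2 fold change of 0.40 (SE 0.166, adjusted p = 0.0786) did not pass. With total counts it did (adjusted p = 0.0374). The peak at the upper end of Vcam1, chr3:116129302-116129528, held 13 to 34 counts per library and had a log2 fold change of 0.21 (SE 0.249, adjusted p = 0.603). The SE was larger than the estimate, so a change of that size could not be told from none.

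The Mertk peak at chr2:128784874-128785066, 193 bp wide and inside the gene, had the largest rise of all member peaks and also the lowest mean level. It read 2.29 to 4.01 CPM at 18 months (median 2.62) and 1.16 to 2.34 at 3 months (median 1.77), on 11 to 34 counts per library, with overlap at 1 library per age. The log2 fold change was 0.75 (SE 0.248, adjusted p = 0.0245), and it was lost without the 18-month male BM-40, the 3-month female BM-244 or the 3-month female BM-245 (adjusted p = 0.0539 to 0.0704). Abundance offsets (adjusted p = 0.0662) and width offsets (adjusted p = 0.0985) also removed it. The peak nearest the printed Mertk sequence, chr2:128697816-128698460, read 5.94 ± 0.653 CPM at 18 months and 4.94 ± 1.56 at 3 months (SD, n = 6; log2 fold change 0.27, SE 0.176, adjusted p = 0.292). A Mertk-window peak inside Anapc1, which encodes a subunit of the anaphase-promoting complex, did not overlap between ages (14.2 ± 0.708 against 17 ± 1.12 CPM; log2 fold change -0.26, SE 0.111, adjusted p = 0.0917).

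Peaks within 1 kb of a gene start, or of either gene end where no start was at hand, were rarely higher with age in the table as a whole: 3.65% rose and 28% fell of 11697, with a median of -0.15. Among the members 8 had such a peak. Adgre1 and Hmox1 rose, Slc40a1 fell and 5 did not pass, with 7 of 8 fold changes positive and a median of 0.32.

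Summing the counts over all peaks of a gene gave 9 values. Over the same sums for 16925 genes, 10.8% rose and 30.3% fell, and the median was -0.07. Ly6c2 rose from 26.8 ± 2.79 to 34.9 ± 2.61 CPM (SD, n = 6; log2 fold change 0.39, SE 0.0828, adjusted p = 0.00107). Its ages were barely apart, with the lowest 18-month library at 31.5 and the highest 3-month library at 31.4 CPM. Adgre1 rose from 45.5 ± 5.05 to 54.4 ± 6.66 CPM (log2 fold change 0.26, SE 0.0864, adjusted p = 0.0233) and was lost without the 18-month female BM-35 or the 3-month females BM-243, BM-244 or BM-245 (adjusted p = 0.0554 to 0.0652). Within sexes the Adgre1 sum stood at 0.48 in females (adjusted p = 0.00143) and 0.03 in males (adjusted p = 0.829). The edgeR interaction on this sum did not pass (adjusted p = 0.267).

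Vcam1 rose from 6.64 ± 0.797 to 8.38 ± 1.16 CPM (log2 fold change 0.34, SE 0.132, adjusted p = 0.0469). That call held without the 18-month female BM-36, the 18-month male BM-40 or the 3-month female BM-244. It was lost without each of the other 9 libraries (adjusted p = 0.0576 to 0.134) and with abundance offsets (adjusted p = 0.158). Siglec1 fell from 102 ± 4.80 to 74.3 ± 4.40 CPM (log2 fold change -0.46, SE 0.0569, adjusted p = 4.04e-06), and Slc40a1 fell by the amount of its single peak. With a window of 3 kb, which leaves Adam33 out, the Siglec1 sum had a log2 fold change of 0.08 (adjusted p = 0.661). The sums of Csf1r (0.01), Hmox1 (-0.05), Cd163 (-0.14) and Mertk (0.00) did not pass. With the 3 kb window Hmox1 stood at 0.44 (adjusted p = 0.037) and Mertk at 0.37 (adjusted p = 0.0156), while Ly6c2, with 1 peak left, no longer passed (0.35, adjusted p = 0.131).

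In females 7 member peaks passed, 3 higher and 4 lower, and in males 5, 3 higher and 2 lower, where 11.9% and 11.4% of all tested peaks passed in either direction. Only the wide Adam33 peak near Siglec1 passed in both sexes. The female calls of higher accessibility were at the outer Adgre1 peak and at Hmox1. At the Hmox1 end peak, females went from 9.75 ± 2.16 to 17.1 ± 1.4 CPM (SD, n = 3; log2 fold change 0.81, adjusted p = 0.00157) and males from 14.3 ± 3.36 to 15.2 ± 4.32 (0.08, adjusted p = 0.834). At the outer Adgre1 peak, females went from 13.7 ± 0.913 to 22 ± 3.86 CPM (0.69, adjusted p = 0.0024) and males from 17.7 ± 3.93 to 17.7 ± 1.27 (0.01, adjusted p = 0.984). The male calls of higher accessibility were at the Adgre1 end peak, the Ly6c2 peak 8.2 kb beyond the gene (0.67, adjusted p = 0.0261) and the Hmox1 peak 7.5 kb outside it (0.58, adjusted p = 0.0348), and a peak in Mcm5 fell by 0.44 (adjusted p = 0.0177). The male count was 1, with 0 higher, with abundance or width offsets and without BM-39 or BM-251. It was 2 without BM-38, BM-40 or BM-253. The female count was 4 without BM-36, BM-244 or BM-245.

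The difference between the sexes was itself tested. The age by sex interaction was called at 0 of 38 member peaks by edgeR (4 at an unadjusted p under 0.05) and at 0.00532% of all tested peaks. The smallest adjusted values were 0.303 at the outer Adgre1 peak and 0.327 at the Hmox1 end peak. Leaving out the 3-month male BM-252 brought the count to 2. Sex itself was called at 0 member peaks (3 at an unadjusted p under 0.05), beside 0.162% of all tested peaks. DESeq2 also called 0 for both.

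Genes that work beside the members were read at their start peaks from lists that do not hold the members. Of 18 monocyte-list genes with such a peak 7 rose and 1 fell (median 0.28), against the 3.65% and 28% of all start peaks. Ms4a7, a membrane protein gene of macrophages, rose from 2.98 ± 0.389 to 4.99 ± 1.07 CPM (SD, n = 6; log2 fold change 0.74, adjusted p = 0.00449). Nr4a1, the nuclear receptor needed by non-classical monocytes, rose by 0.56 (adjusted p = 0.000144), as did Cx3cr1, the fractalkine receptor (0.56, adjusted p = 0.0168). Mpeg1, Lyz2, Cd14 and Itgam also rose, and Zeb2, a transcription factor, fell by 0.57 on the log2 scale (adjusted p = 0.000314). The higher count was 11 with total counts, 6 by DESeq2, and 5 to 9 on leaving out 1 library (5 without the 18-month male BM-40 or the 3-month female BM-244, 9 without the 3-month male BM-253).

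Of 14 iron-recycling-list genes 1 rose and 5 fell (median -0.20), near the shares of 3.65% and 28% over all start peaks. Slc11a1, the phagosomal metal transporter, rose by 0.47 (adjusted p = 0.00522). Slc48a1, the heme transporter, fell from 88.9 ± 7.65 to 63.5 ± 5.46 CPM (SD, n = 6; log2 fold change -0.48, adjusted p = 6.78e-05). Bach1, the heme-sensing repressor of Hmox1, fell by 0.48 (adjusted p = 0.00033) and Blvrb, a biliverdin reductase, by 0.44 (adjusted p = 0.000144), and Fth1 and Nfe2l2 also fell. With abundance or width offsets 2 rose and 3 fell. Cd5l, Vsig4, Cp and Hpx had no start peak.

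Of 13 genes on the island and tissue macrophage list 6 fell and 0 rose by edgeR or DESeq2 (median -0.19; 0 higher at an unadjusted p under 0.05), beside 28% lower and 3.65% higher over all start peaks. The 3 with the largest fall were Epor, the erythropoietin receptor of red cell precursors (-0.80, adjusted p = 5.25e-08), Itgb1, a broadly used integrin chain (-0.56, adjusted p = 2.9e-05) and Cd47, which protects cells from being engulfed (-0.54, adjusted p = 4.04e-06). Icam4, Dnase2a and Itga4 also fell. Dnase2a encodes the nuclease with which island macrophages digest expelled nuclei. Its peak, chr8:84906263-84914482, lies next to the start peak of the erythroid-list gene Klf1, chr8:84900147-84904147 (log2 fold change -0.77). To which of these genes the Dnase2a fall belongs was not tested. Epor and Icam4 are genes of red cell precursors, and all 11 erythroid-list genes with a start peak fell in the same libraries. The 7 genes not called had log2 fold changes of -0.19 to 0.17. Among them, Cd68, a lysosomal protein of macrophages, stood at 0.17, Maf, a macrophage transcription factor, at 0.12, Gas6, the ligand of Mertk, at -0.02, Mfge8, a bridging protein of engulfment, at -0.09, Lgmn, a lysosomal protease, at -0.09, Itgav, an integrin chain, at -0.08 and Maea, an erythroblast attachment protein, at -0.19. The macrophage genes Axl, Mrc1, C1qa, C1qb, C1qc, Timd4 and Tyro3 had no start peak. With total counts, abundance offsets or width offsets, or without the 3-month male BM-253, 1 gene of the list rose, and with either kind of offset 4 fell.

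Markers of other marrow cells moved with age in the same libraries. All 11 erythroid-list genes with a start peak fell (median -1.02), Hbb-bs from 38.5 ± 3.82 to 16.02 ± 2.35 CPM (SD, n = 6), and their summed level ran from 307 to 344 CPM at 18 months and from 562 to 710 at 3 months. Alas2 had no start peak. Of 11 neutrophil-list genes 9 rose (median 0.49), and their sum ran from 265 to 327 CPM at 18 months and from 170 to 341 at 3 months, with Elane the gene without a start peak. The neutrophil count was 6 by DESeq2. The part of erythroid and neutrophil cells in the member results was not tested. The monocyte list summed to 342 to 397 CPM at 18 months and 268 to 408 at 3 months, where the highest value was again the 3-month male BM-253.

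Of the other lists, 1 of 6 T-cell genes fell (Lck, not with width offsets) and 0 rose by edgeR or DESeq2. Cd3d and Cd3g read the same peak, which rose with total counts. By edgeR there were calls at 0 of 8 B-cell, 0 of 4 stromal and endothelial and 0 of 5 stem and progenitor genes. DESeq2 called 0 on the latter 3 lists as well, and at an unadjusted p under 0.05 there were 2 lower B-cell genes and 1 lower stem and progenitor gene. Without the 18-month female BM-36 or the 3-month females BM-243 or BM-244, edgeR called 1 B-cell gene lower. The B-cell list summed to 61.4 to 92.4 CPM at 18 months and 77.3 to 101.1 at 3 months.

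**Figure D4:**
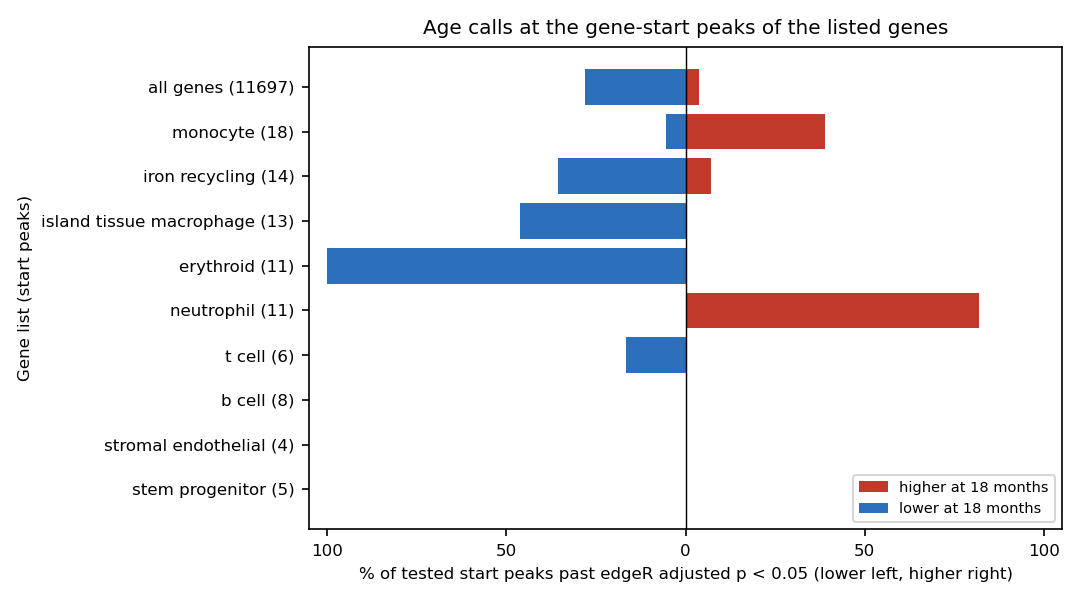
Share of start peaks called with age on each gene list. Bars run left for lower and right for higher at 18 months, in % of the start peaks tested (their number in brackets), at an edgeR adjusted p under 0.05, and the top bar gives all genes; Cd3d and Cd3g share 1 peak, counted for each. The monocyte and neutrophil bars run mostly right, the erythroid bar runs left over all 11 genes, and the iron-recycling and island bars run mostly left, as does the bar of all genes.

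Within groups, the start peak of Csf1r varied most like those of Nfe2l2 (Pearson r = 0.92), Lyz2 (r = 0.83) and Blvrb (r = 0.82) among 97 genes (listed genes and the other members), over deviations of 12 libraries from their group means. For Vcam1 the nearest was Siglec1 (r = 0.70). These are descriptions: the deviations share library composition and depth, and Vcam1 rests on 13 to 34 counts per library.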

How the data were processed

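Accessibility was measured in 12 bone marrow libraries, 3 per age and sex, grouped by the sample labels. The authors deposited counts of reads for 75281 consensus peaks, whole numbers that sum to a different total in each library, with 1 as the smallest value (985 values). The submitters' processing notes name Trimmomatic, BWA, MACS2, DiffBind and edgeR and the build mm10; their settings, the treatment of duplicates and the shift of read ends to the cut site are not given in the sources used here. A floor of 1 compresses folds only at the lowest peaks, and member peaks held 11 to 693 counts. Without molecular identifiers, depth floors cover counting error only.

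Peaks were matched by centre to RefSeq GRCm38.p6 gene spans, and positions are printed as deposited. The 75164 peaks that passed 1 CPM in 2 or more libraries (117 left out) were tested with edgeR 4.0.16 (TMM, quasi-likelihood, age and sex) in R 4.3.3, with a 4-group model for effects within a sex and the interaction. P-values were adjusted by Benjamini-Hochberg over all tested peaks, and SEs come from the F statistic. The fits were tested on simulated data. Alternatives were total counts, offsets by loess on abundance or width (span 0.3), DESeq2 1.42.0, no filter, a stricter filter (CPM above 3 in at least 6 libraries), a 3 kb window, Adgre1 regrouped and each library left out.

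Peaks named are each member's start or end peak and the one with the smallest age p, listed genes the up to 3 called start peaks of largest change per direction. The other called peaks, and the alternatives on them and on the marker lists, were added after their values were seen. Members and lists were chosen with earlier results of these data known. Of 128 listed genes all were in the gene table, and 4 of 10 members matched the promoter table. Some of the genes whose accessibility varied most like that of Vcam1 are not reported here.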

Additional observations from a re-analysis of the deposited data

Results flagged for a closer look

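In 1 of 54 groups of 6 libraries checked for a value far from the others, a member stood apart: the summed Adgre1 accessibility of the 3-month male BM-253 was 55.6 CPM, while the other 3-month libraries lay between 42.1 and 45.0. Its gap was 0.79 of the group's range, above Dixon's critical value of 0.625. Chance flags about 1 in 20 such groups. The same library had the highest 3-month sums of the neutrophil list (341 CPM) and of the monocyte list (408 CPM), and the part of these in the Adgre1 value was not tested.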

How the results depend on the processing

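The counts of called peaks moved with the processing, and except where the construction shows it (fewer peaks in a 3 kb window, fewer libraries) the cause was not tested. With width offsets 6 member peaks were called in place of 12, 1 in place of 4 at the monocyte genes, 2 in place of 4 at the iron-recycling genes and 1 in place of 5 in males. Total counts gave 7 at the monocyte genes, and abundance offsets 1 in males. A 3 kb window gave 4 called member peaks: 1 at the monocyte, 2 at the iron-recycling and 1 at the island and tissue macrophage genes, with 2 in females and 1 in males; it reversed the sums of Hmox1 (0.44) and Siglec1 (0.0846). Moving Adgre1 from the monocyte to the island and tissue macrophage group left 2 calls in the former and gave 6 in the latter. Leaving out 1 library gave 6 to 15 calls over all members, 1 to 6 at the monocyte and 1 to 5 at the iron-recycling genes, 0 to 2 for the interaction, 4 to 8 in females, 1 to 6 in males, and 3 to 5 of the 9 summed genes. Of the 12 called peaks, 4 kept their call under every alternative run on them: the Adgre1 end peak, the Slc40a1 peak and the Adam33 peaks at chr2:131052152-131055266 and chr2:131062391-131063227. The other scalings moved the median of all peaks to between 0.01 and 0.10. The ages could not be paired, because the groups share no replicate number and no run held both ages. At 3 months, runs 29 and 31 each held a female and a male, and the sexes were not compared within them. Peaks of 11 to 34 counts, as at Mertk and Vcam1, limit what could be detected.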
